A study of Mus musculus with 4 samples.

Results

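Lymphoid lineage programme genes are transcription factors, receptors, kinases and recombination enzymes that B cells, T cells and innate lymphoid cells use as they form. Some of them, such as Ikzf2, are not particular to lymphoid cells. A list of 54 such mouse genes was taken here, 19 of the B lineage, 16 of the T lineage together with natural killer and innate lymphoid cells, and 19 shared by both. A peak was counted for a gene when the deposited table of differential accessibility named that gene for it. This gave 8 of the 5332 peaks in the table, belonging to 7 of the 54 genes. Bach2 and Spib stood for the B lineage, Gata3 and Tox for the T lineage, and Ikzf2, Il2rg and Syk for the shared genes, with 2 peaks for Syk. The table named 15.8% of all protein-coding genes of GENCODE M21, 3447 of 21755, against 13.0% of the list, so the share of the list was slightly below that of protein-coding genes at large.

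The study asked how loss of Sin3B, a scaffold of histone deacetylase repressor complexes, affects the chromatin of long-term hematopoietic stem cells (LT-HSCs) in mice at homeostasis. Accessibility was measured by ATAC-Seq, in which the Tn5 transposase inserts sequencing adapters into open DNA. There were 4 libraries, 2 of Sin3B+/+ LT-HSCs (labelled WT, and also called Sin3B F/F by the study) and 2 of Sin3B-/- LT-HSCs (labelled KO). Each library came from the sorted cells of 2 mice, 8 mice in all, on a C57BL/6 background.

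In the Sin3B-/- mice a floxed Sin3B was deleted by Vav1-iCre, which is active throughout the blood system, so the mutant LT-HSCs had formed in animals whose other blood cells lacked Sin3B too. The study used male and female mice in equal numbers unless stated otherwise, but the sexes pooled in each library and the age of these mice are not given in the sources used here. LT-HSCs were sorted as L-S+K+ Flk2-CD48-CD150+ cells. The lineage antibodies removed cells with CD3, CD4, CD8a, B220 or IL7Rα on their surface, besides myeloid and erythroid cells, so cells that already display the products of Cd3e, Cd3g or Il7r were taken out by the sort. The table holds no peak of Sin3b, so the deletion could not be checked with it. It also holds only peaks that the authors had called different, so marker genes at equal accessibility do not appear and the identity of the sorted cells could not be tested.

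LT-HSCs are not committed to any blood lineage, yet many enhancers and promoters of lineage genes are already partly open in them, a state called priming. Lymphoid commitment starts when Ikaros family and E-protein factors, with signals through cytokine receptors such as the IL-7 receptor, open these genes further. EBF1 and PAX5 then fix the B-cell fate, while GATA-3, TCF-1 (Tcf7) and BCL11B fix the T-cell fate, and the RAG enzymes and terminal transferase assemble antigen receptors in both.

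The 8 peaks lay at different kinds of site (mouse build GRCm38, also called mm10, with GENCODE M21 genes). The Il2rg peak, at chrX:101268100-101268437, covered the transcription start, its centre being 13 bp upstream, within an intron of the overlapping gene model Gm20489. The Tox peak, at chr4:6990486-6991709, overlapped the start of the gene and had its centre at -298 bp from the start of the transcript Tox-201. The Gata3 peak, at chr2:9879292-9879969, lay outside the exons, at -1030 bp from the start of Gata3-201 but 10404 bp inside the gene as a whole, which has a more distant start.

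The remaining 5 peaks were away from the starts of their genes. The Ikzf2 peak (chr1:69606824-69607458) was in an intron, 80104 bp downstream of the gene start. A Syk peak (chr13:52572378-52572921) was intergenic, 10524 bp upstream, and the other (chr13:52614896-52615430) was in an intron, 31990 bp downstream. The Spib peak (chr7:44527507-44528430) had its centre in an exon, 4103 bp downstream of the gene start, and 81.28% of its length in exons. The Bach2 peak (chr4:32588136-32588631) was intergenic, 349579 bp from the gene start and beyond the gene end at 32586108, and the nearest gene start was that of Gja10, 14377 bp away. The table's name for a peak is thus an assignment by position and not evidence that the site regulates that gene. In all, 2 of 8 peaks had a centre within 1000 bp of the start of any gene, against 36.6% of the table.

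**Figure D1:**
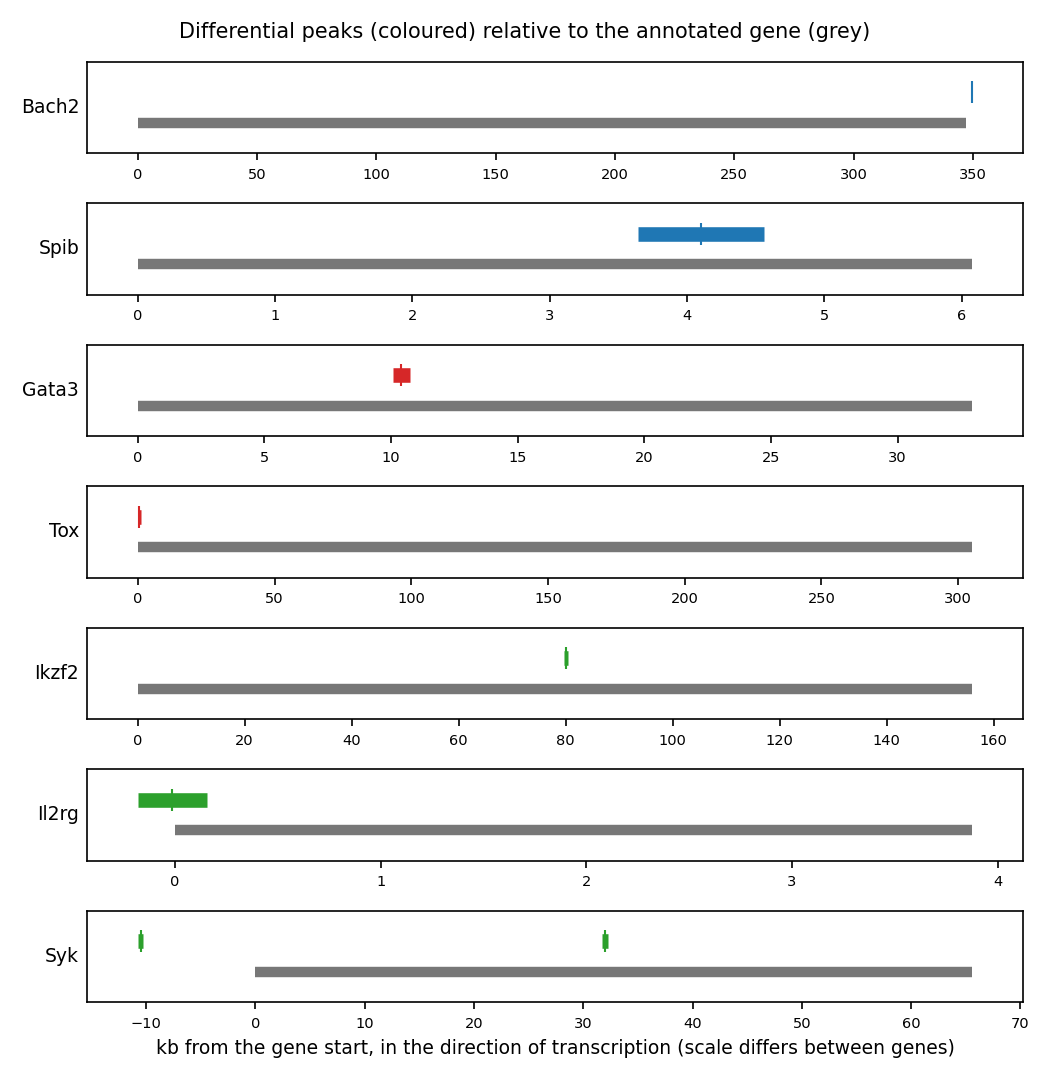
Each row shows a gene (grey bar, from its annotated start to its end) and the differential peaks named for it (coloured bars, blue for the B lineage, red for the T lineage and green for shared genes), with the distance from the gene start in kb on the x axis on a scale that differs between rows. The Il2rg and Tox peaks sit at the gene start, the Bach2 peak lies just past the gene end, and Syk has 1 peak upstream and 1 inside the gene.

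The sequences of 5 of these sites are given because they are the DNA that the accessibility values describe. Il2rg, Tox and Bach2 carried the largest change in the shared, T-lineage and B-lineage groups, and the Gata3 and intronic Syk sites were added after their values had been seen. All are from GRCm38, overlap no annotated exon and read 5′ to 3′ on the strand of the gene, which is the minus strand for Il2rg, Tox and Gata3 and the plus strand for Bach2 and Syk. Capitals mark matches to motifs of lymphoid factors, searched on both strands as described next.

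The Il2rg stretch is the part of the peak upstream of the first exon (chrX:101268256-101268437), and its capitals mark overlapping EBF matches and then an ETS match.
Il2rg: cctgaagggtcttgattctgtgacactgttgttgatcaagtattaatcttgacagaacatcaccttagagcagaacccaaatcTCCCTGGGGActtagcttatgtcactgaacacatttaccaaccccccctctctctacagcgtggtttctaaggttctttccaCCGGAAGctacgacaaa

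The Tox stretch precedes the Tox-201 start (chr4:6990800-6991099), and its capitals mark a RUNX match.
Tox: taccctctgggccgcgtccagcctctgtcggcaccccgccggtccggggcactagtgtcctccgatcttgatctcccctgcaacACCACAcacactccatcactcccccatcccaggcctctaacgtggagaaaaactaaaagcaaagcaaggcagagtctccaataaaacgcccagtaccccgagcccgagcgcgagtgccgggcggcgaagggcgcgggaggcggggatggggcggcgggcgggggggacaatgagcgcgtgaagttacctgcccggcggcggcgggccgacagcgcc

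The Gata3 stretch is the centre of the peak (chr2:9879481-9879780) and held no match.
Gata3: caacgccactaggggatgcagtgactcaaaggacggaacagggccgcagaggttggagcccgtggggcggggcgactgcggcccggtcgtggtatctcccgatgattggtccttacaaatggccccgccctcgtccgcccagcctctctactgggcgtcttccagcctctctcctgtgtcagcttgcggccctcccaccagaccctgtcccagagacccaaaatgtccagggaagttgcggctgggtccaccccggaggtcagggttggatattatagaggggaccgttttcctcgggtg

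The Bach2 stretch is the centre of the peak (chr4:32588234-32588533), and its capitals mark an Ikaros match.
Bach2: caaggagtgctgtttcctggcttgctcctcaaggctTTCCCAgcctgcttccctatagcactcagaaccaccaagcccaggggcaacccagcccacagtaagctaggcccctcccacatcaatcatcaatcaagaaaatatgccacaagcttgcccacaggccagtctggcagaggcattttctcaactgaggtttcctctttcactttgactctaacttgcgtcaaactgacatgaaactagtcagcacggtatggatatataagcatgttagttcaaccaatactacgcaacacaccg

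The Syk stretch is the centre of the intronic peak (chr13:52615014-52615313), and its capitals mark an E-box and then a GATA match.
Syk: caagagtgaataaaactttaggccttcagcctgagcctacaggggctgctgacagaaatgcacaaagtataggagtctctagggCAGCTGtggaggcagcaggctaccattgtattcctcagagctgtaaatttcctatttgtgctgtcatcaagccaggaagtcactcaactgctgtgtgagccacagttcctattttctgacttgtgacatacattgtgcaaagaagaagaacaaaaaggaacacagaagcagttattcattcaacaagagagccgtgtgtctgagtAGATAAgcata

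The 8 sites differed in base composition. In the central 300 bp of each peak, GC content was 63.3% for Gata3, 61.7% for Tox and 59% for Spib, with 19, 17 and 16 CpG dinucleotides. The other 5 windows had a GC content of 44.3% to 49.3% and 1 to 4 CpG dinucleotides. The median of the 8 windows was 48%, and that of all 5332 peaks was 54%.

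The motif letters searched are those of factors known from lymphoid development, and they are short enough to occur often. The E-box letters bound by E proteins (CAGGTG or CAGCTG) were in 4 of 8 member windows, those of Ikzf2, Il2rg and both Syk peaks, and in 33.9% of all windows. The RUNX letters TGTGGT were in 2 windows (Ikzf2 and Tox) and 28.1% of all, and the GATA letters AGATAA in 2 windows (Ikzf2 and intronic Syk) and 17.9% of all. The Ikaros letters TGGGAA occurred in the Bach2 window and 23.5% of all, the PU.1 and Spi-B letters GAGGAAGT in the Ikzf2 window and 8.53% of all, and the EBF letters TCCCNNGGG in the Il2rg window and 5.46% of all. The ETS letters CCGGAAG, looked for only after the Il2rg sequence had been read, were in that window and 9.26% of all. The longer RUNX form TGTGGTTT, the TCF-1 and LEF-1 letters (CTTTGAA or CTTTGAT) and the octamer ATGCAAAT had 0 matches in the 8 windows, and 5.29%, 7.71% and 1.5% in all. The window of Ikzf2 thus held 4 of these motifs, while those of Gata3 and Spib held none of them. With 8 windows, counts of this size describe these sites only.

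All 8 peaks were more accessible in Sin3B-/- LT-HSCs. At every one of them each Sin3B-/- library exceeded each Sin3B+/+ library, and limma called all 8 higher and 0 lower at an adjusted p of at most 0.05. The background was nearly the same: the libraries separated in this way at 95.7% of the table's peaks, and limma called 95.7% of the table higher. The direction of the lymphoid peaks was therefore that of the table as a whole. Every peak in the table had been selected by the authors for a difference between these same libraries, so these calls describe the spread between libraries and are not independent evidence.

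The value for each peak is a normalized read level, the number of reads in the peak times a scaling factor for its library, and fold changes are differences in mean log2(level + 1). The limma fit used the same standard error of 0.22 for every peak, because it estimated the spread across the table, so its p-values do not reflect the spread of a single peak. With 2 libraries per genotype an exact two-sided permutation test cannot give a p-value below 0.33. In a pool of sorted cells, more cells with an open site and a site more often open per cell cannot be told apart.

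The libraries differed in scale over the whole table. The levels summed over all 5332 peaks were 1986378 and 1657641 in Sin3B+/+ replicates 1 and 2, and 2837467 and 3102888 in Sin3B-/- replicates 1 and 2. These sums cover part of each library, whose depth in all is not known here. They also depend on the authors' scaling factors. The values came in steps, smaller in both Sin3B+/+ libraries (0.228 and 0.343) than in both Sin3B-/- libraries (0.625 and 1). If a step stands for 1 read, the factors differed by genotype, and their part in the fold changes was not tested. The lymphoid peaks summed to 1216 and 873 in Sin3B+/+, and to 1723 and 1878 in Sin3B-/-. Sin3B+/+ replicate 1 was above replicate 2 at 8 of 8 lymphoid peaks and at 87.7% of the table. The median log2 fold change of the table was 0.76, so a peak at that value moved no more than the typical peak of the table. Each fold change of a single peak is therefore given below with its value after centring each library on its own median log2 level.

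**Figure D2:**
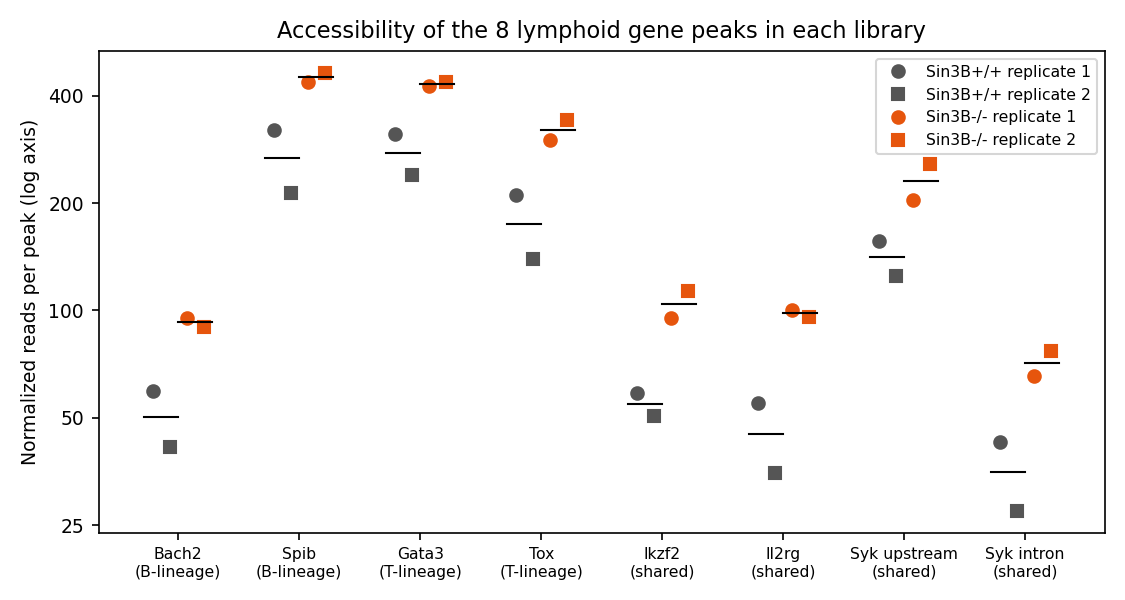
Normalized reads per peak (y axis, logarithmic) in each of the 4 libraries for the 8 lymphoid gene peaks (x axis), with Sin3B+/+ in grey, Sin3B-/- in orange, circles for replicate 1, squares for replicate 2 and black lines for the genotype means (n = 2). At each peak both orange points lie above both grey points, from 27.4 to 77 at the lowest peak (Syk intron) to 214 to 464 at the highest (Spib).

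Among B-lineage genes, Bach2 and Spib had a peak each. Bach2 encodes a BTB and leucine zipper repressor that favours the B-cell programme over the myeloid one in progenitors. At its peak the levels were 59.3 and 41.5 in Sin3B+/+, against 95.0 and 90 in Sin3B-/-. The genotypes did not overlap, and the Sin3B-/- libraries lay closer together than the Sin3B+/+ ones. The means were 50.4 ± 12.6 and 92.5 ± 3.51 (SD, n = 2 each), a log2 fold change of 0.88 ± 0.22 (SE; limma adjusted p = 0.00011). After centring the log2 fold change of Bach2 was 0.13 (adjusted p = 0.63).

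Spib encodes Spi-B, an ETS factor related to PU.1 that acts in B cells and plasmacytoid dendritic cells. Its peak, over the last coding exon, had the highest mean level of the 8, with 320.3 and 214 in Sin3B+/+ and 435 and 464 in Sin3B-/-. Replicate 2 was much the lower of the Sin3B+/+ libraries. The means were 267 ± 75.3 and 450 ± 20.2 (SD, n = 2 each), and the log2 fold change was 0.78 ± 0.22 (limma adjusted p = 0.00059), with 53.2% of the table below it. Without Sin3B+/+ replicate 2 it was 0.49 (adjusted p = 0.035). After centring it was 0.03 (adjusted p = 0.94).

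Among T-lineage genes, Gata3 and Tox had a peak each. Gata3 encodes the zinc finger factor that early T cells, type 2 helper T cells and type 2 innate lymphoid cells depend on. The levels at its peak were 312 and 240.3 in Sin3B+/+, against 427 and 438 in Sin3B-/-. The Sin3B-/- libraries nearly coincided, and the nearest Sin3B+/+ library was below both. The means were 276 ± 51 and 432 ± 7.96 (SD, n = 2 each). The log2 fold change of 0.66 ± 0.22 (limma adjusted p = 0.0031) was the smallest of the 8. After centring it was -0.10 ± 0.12 (SE; adjusted p = 0.69), so Gata3 did not differ detectably from the table's median. Without Sin3B-/- replicate 2 the call was lost, with a log2 fold change of 0.64 and an adjusted p of 0.051.

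Tox encodes an HMG box protein that T-cell selection and innate lymphoid cell development require. Its promoter peak was the widest of the 8, at 1224 bp, and had levels of 211 and 139 in Sin3B+/+ and 301 and 342 in Sin3B-/-. Here the spread within each genotype was wide, yet the genotypes did not overlap. The means were 175 ± 50.7 and 321 ± 29.3 (SD, n = 2 each), and the log2 fold change was 0.90 ± 0.22 (limma adjusted p = 8.3e-05). Without Sin3B+/+ replicate 2 the log2 fold change of Tox was 0.60 (adjusted p = 0.012), and after centring it was 0.15 (adjusted p = 0.61).

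Among shared genes, Il2rg, Ikzf2 and Syk had peaks. Il2rg encodes the common gamma chain of the receptors for IL-2, IL-7, IL-15 and related cytokines, on which lymphoid development depends. Over its start, levels of 55.0 and 35.0 in Sin3B+/+ stood against 101 and 96 in Sin3B-/-. Even the higher Sin3B+/+ library was far below the Sin3B-/- libraries. The means were 45 ± 14.2 and 98.3 ± 3.25 (SD, n = 2 each). The log2 fold change of 1.15 ± 0.22 (limma adjusted p = 6.3e-07) was the largest of the 8, and 86.2% of the table was below it. After centring it was still the largest of the 8, at 0.39, but it was not called (adjusted p = 0.19). Il2rg lies on the X chromosome, where the table held 90 peaks with a median log2 fold change of 0.71, of which 87 were higher in Sin3B-/-.

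Ikzf2 encodes Helios, an Ikaros family zinc finger protein found in stem cells and regulatory T cells. Its intronic peak had levels of 58.6 and 50.7 in Sin3B+/+ and 95.0 and 113 in Sin3B-/-. The Sin3B+/+ libraries were closer together here than at any other of the 8 peaks. The means were 54.7 ± 5.59 and 104 ± 12.7 (SD, n = 2 each), with a log2 fold change of 0.91 ± 0.22 (limma adjusted p = 6.6e-05). After centring the log2 fold change of Ikzf2 was 0.16 (adjusted p = 0.5).

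Syk encodes the tyrosine kinase that relays signals from the B-cell receptor and from Fc receptors. At its intronic peak the levels were 42.9 and 27.4 in Sin3B+/+, against 65.6 and 77 in Sin3B-/-. This was the lowest of the 8 peaks in mean level, and the genotypes did not overlap. The means were 35.2 ± 10.9 and 71.3 ± 8.06 (SD, n = 2 each), and the log2 fold change was 1.03 ± 0.22 (limma adjusted p = 7.4e-06), or 0.28 after centring (adjusted p = 0.36).

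The Syk peak upstream of the gene was higher in level, with 156 and 125 in Sin3B+/+ and 204 and 258 in Sin3B-/-. On the linear scale the lower Sin3B-/- library was nearer to the higher Sin3B+/+ library than to its own replicate. The means were 141 ± 22.3 and 231 ± 38 (SD, n = 2 each). The log2 fold change was 0.71 ± 0.22 (limma adjusted p = 0.0015) and turned to -0.04 after centring (adjusted p = 0.89). Without Sin3B-/- replicate 2 the call was lost, at 0.55 with an adjusted p of 0.083. Whether the 2 Syk peaks differed in their change was not tested.

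As a group, the 8 peaks had a median log2 fold change of 0.89, between 0.66 and 1.15, and the table had a median of 0.76 with quartiles of 0.63 and 0.97. After centring, the median of the 8 was 0.14 (range -0.10 to 0.39) against 0.01 for the table, and limma called 0 of the 8 in either direction. At an unadjusted p under 0.05 it passed 1 of the 8 (Il2rg), against 21.3% of the table. In that fit the adjusted p called 7.01% of the table higher, 374 peaks, and 229 peaks lower, in place of 5103 higher and 229 lower with the authors' scaling. The medians used for centring came from these selected peaks, 95.7% of which limma had called higher in Sin3B-/-. Centring thus takes away the typical change of the selected peaks, so a typical peak must lose its call. The result for the 8 peaks means only that none moved detectably more than the table's median, with 2 libraries per genotype. The source of that median change was not tested.

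**Figure D3:**
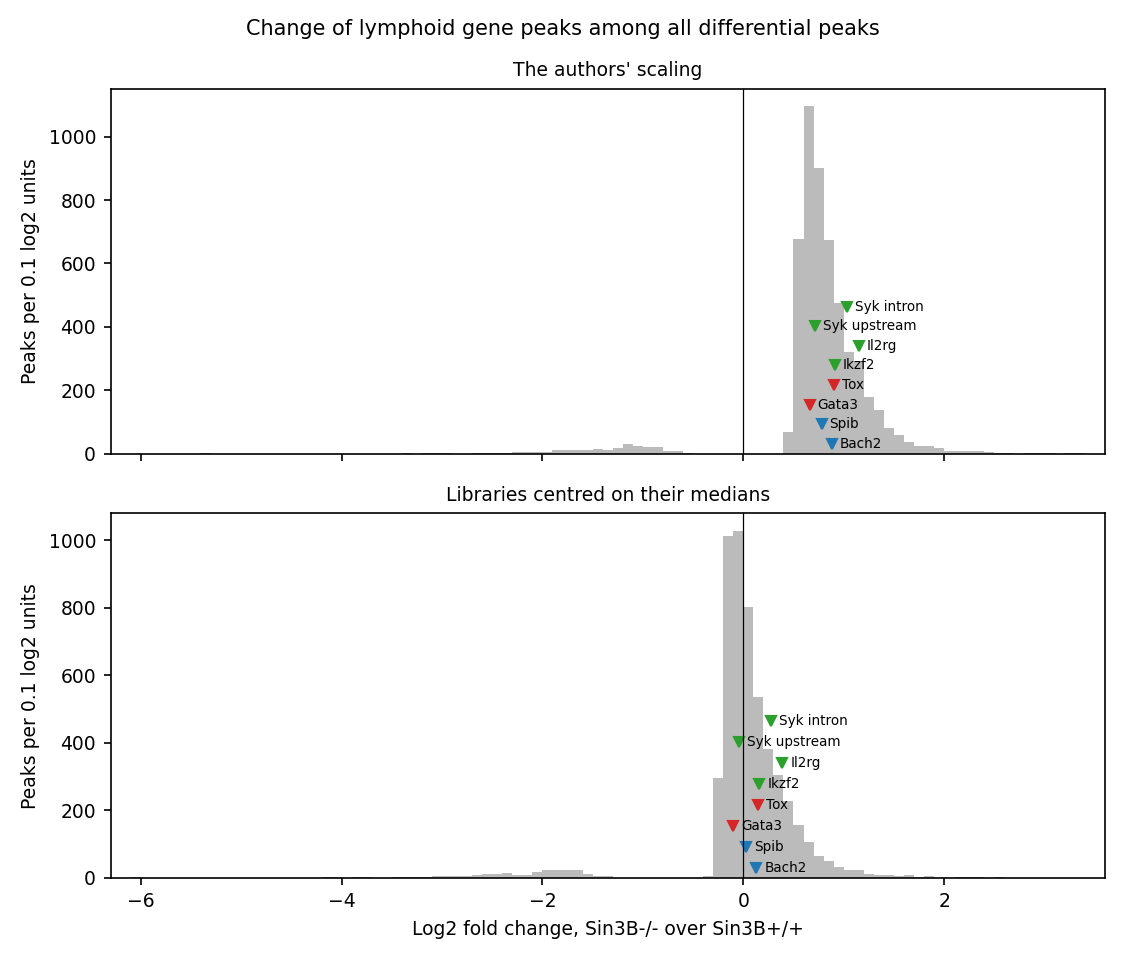
Histograms of the log2 fold change (x axis, Sin3B-/- over Sin3B+/+) of all 5332 differential peaks, as peaks per 0.1 log2 units (y axis), with the authors' scaling above and with each library centred on its median below; triangles mark the 8 lymphoid gene peaks, at arbitrary heights, in blue (B lineage), red (T lineage) and green (shared). The triangles lie within the main body of the histogram, between 0.66 and 1.15 above and between -0.10 and 0.39 below, where Gata3 and Syk upstream fall left of 0.

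The lymphoid peaks had a lower median level than the table, though Spib and Gata3 lay above its middle, with 59% and 58.6% of peaks at a lower mean level, and Tox and Syk upstream somewhat below it, with 48.5% and 40.6%. Their median log2 mean level was 6.92, between 5.73 for Syk intron and 8.49 for Spib, and the table's median was 8.04 with quartiles of 6.74 and 9.23. Bach2, Il2rg, Ikzf2 and Syk intron were among the low peaks of the table, with 14.8%, 14.9%, 17.4% and 9.21% of peaks at a lower mean level. These were also 4 of the 5 largest fold changes of the 8, next to Tox. Low peaks reached the table's list with larger changes than high ones, as the lower edge of the points in the plot of level and change shows, so fold changes of peaks at different levels are not directly comparable. The 8 peaks had a median width of 589.5 bp (338 to 1224 bp), against 685 bp for the table.

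**Figure D4:**
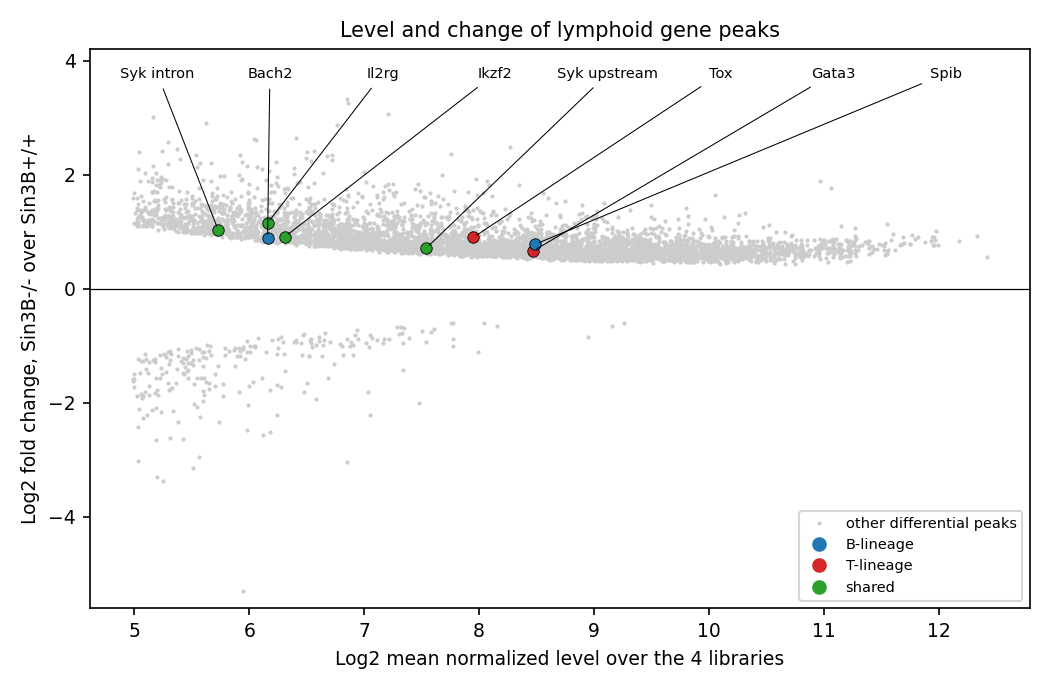
Log2 fold change (y axis, Sin3B-/- over Sin3B+/+) against log2 mean normalized level (x axis) for all 5332 differential peaks (grey) and the 8 lymphoid gene peaks (blue B lineage, red T lineage, green shared). Bach2, Il2rg, Ikzf2 and Syk intron sit at the left among the low peaks, between 5.73 and 6.31, and Gata3 and Spib sit at 8.47 and 8.49.

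The table used here named no peak for the other 47 genes of the list. In the B lineage these were 17 of 19: the lineage-fixing factors Ebf1 and Pax5, the further regulators Bcl11a, Irf4, Pou2af1, Pou2f2 and Ciita, the receptor and surface genes Cd79a, Cd79b, Cd22, Cd24a, Cd74 and Ly6d, the surrogate light chain genes Vpreb1 and Igll1, and the signalling genes Blnk and Btk. In the T lineage they were 14 of 16: the regulators Tcf7, Lef1, Bcl11b, Satb1, Id2, Tbx21 and Eomes, the receptor and surface genes Cd3e, Cd3g, Cd247, Il2rb and Cd2, and the kinases Lck and Zap70. Among shared genes they were 16 of 19: the regulators Ikzf1, Ikzf3, Tcf3, Tcf4, Tcf12, Id3, Pou2f1, Ets1, Bcl6 and Prdm1, the recombination genes Rag1, Rag2 and Dntt, and the surface genes Il7r, Cd27 and Ptprc. Such a gene may have had accessible sites that did not differ by the authors' test or that were named for a neighbour. The paper reported more differential peaks than the table used here holds, so a peak of such a gene may also be missing from it. Peaks that the authors did not call different were not analysed here.

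By role, 5 of 29 nuclear regulators had a peak (17.2%), 1 of 17 receptors and surface molecules (Il2rg, 5.9%), 1 of 5 signalling kinases and adaptors (Syk, 20.0%) and 0 of 3 recombination genes. By lineage, the share was 10.5% of B-lineage genes (2 of 19), 12.5% of T-lineage genes (2 of 16) and 15.8% of shared genes (3 of 19). The 3 lineage shares were at or just below the 15.8% of all protein-coding genes, and the shares of nuclear regulators and of kinases and adaptors were above it. No test was run on such small counts.

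Distances from the starts of the 47 genes to the closest differential peak of any name were measured within the table used here. They were not computed for protein-coding genes at large, so no distance is shown to be particular to this list. The median over the 47 genes was 158302 bp. Within 100000 bp, 27 genes had no such peak and 20 had one, named for another gene. The medians were 97047 bp for the 17 B-lineage genes, 182702 bp for the 14 T-lineage genes and 159346.5 bp for the 16 shared genes. Among early lymphoid genes, taken as examples, the distance was 97047 bp for Ebf1, 302038 bp for Pax5, 171922 bp for Il7r and 113364 bp for Rag1. Others were nearer, such as Tcf7 (22480 bp), Igll1 (34654 bp) and Vpreb1 (41512 bp). The paper names Ebf1 as regulated by a primed peak found only in Sin3B+/+ LT-HSCs. That peak came from an overlap of peak lists and not from the differential comparison used here. Ikzf1, which encodes Ikaros, had no differential peak nearer than 1408698 bp. In all 8 genes had none within 500000 bp, namely Ikzf1, Satb1, Prdm1, Bcl6, Ptprc, Tcf12, Ly6d and Btk, with Btk the farthest at 2032547 bp.

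**Figure D5:**
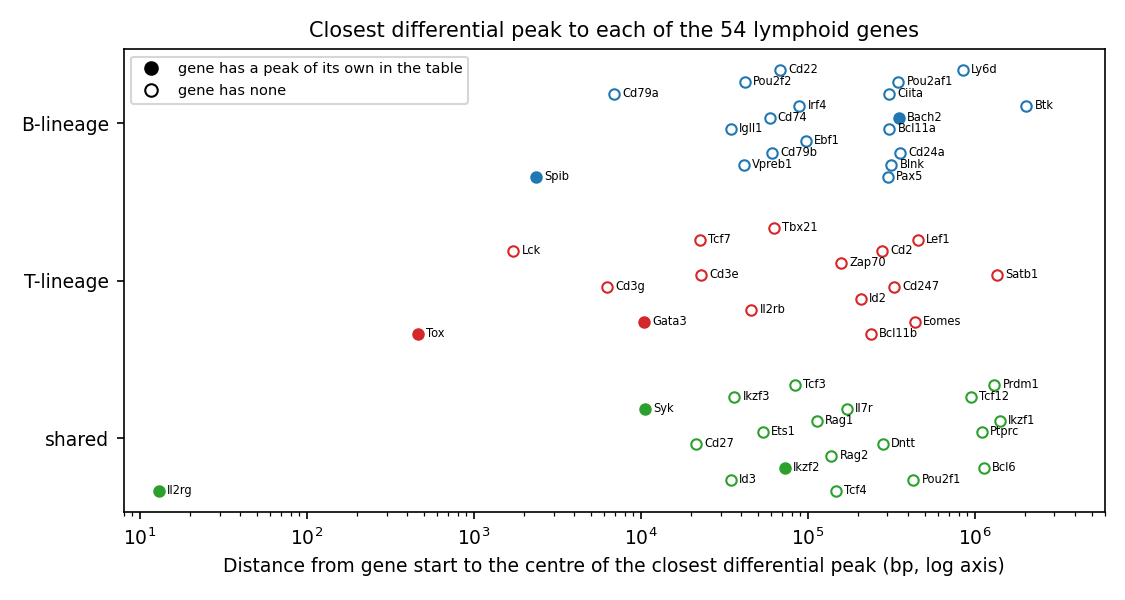
Distance from the start of each of the 54 genes to the centre of the closest differential peak, whichever gene that peak is named for (x axis, bp, logarithmic), by lineage (y axis; the height within a lineage only separates the labels). Filled points are the 7 genes with a peak of their own and open points the 47 without, and most open points lie beyond 10000 bp, with Lck, Cd79a and Cd3g nearer.

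Some genes without a peak of their own had one nearby that was named for another gene. These were picked after their values had been seen. The closest was a peak at chr4:129575016-129575719, named for Fam167b, with its centre 1726 bp upstream of the start of Lck, the kinase that starts T-cell receptor signalling. Its levels were 260 and 211 in Sin3B+/+, against 374 and 415 in Sin3B-/-, and the genotypes did not overlap. The log2 fold change was 0.75 ± 0.22 (limma adjusted p = 0.00093) and -0.01 after centring.

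A peak named for Cd3d (chr9:44986119-44987304), over an exon of that gene, was 6280 bp from the start of Cd3g and 22916 bp from that of Cd3e, genes for further CD3 chains of the T-cell receptor complex. It had levels of 449 and 365 in Sin3B+/+ and 696 and 782 in Sin3B-/-, with a log2 fold change of 0.86 (limma adjusted p = 0.00015) and 0.11 after centring. For Cd79a, which encodes a signalling chain of the B-cell receptor, 2 peaks named for Arhgef1 lay 6905 and 7712 bp from the start. Their log2 fold changes were 0.72 and 1.09, or -0.03 and 0.33 after centring. For Tcf7, a peak named for A630014C17Rik lay 22480 bp away, with levels of 102 and 86.7 in Sin3B+/+ and 163 and 167 in Sin3B-/-. Its log2 fold change was 0.80, or 0.05 after centring. All of these were higher in both Sin3B-/- libraries, like 95.7% of the table.

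A neighbouring peak upstream of Spib stood higher than the rest after centring. It lay at chr7:44534195-44534653, 2353 bp before the gene start, and was named for Pold1, which encodes a DNA polymerase delta subunit and whose exons cover 42.05% of it. The levels were 32.4 and 20.6 in Sin3B+/+, against 67.5 and 108 in Sin3B-/-. The Sin3B-/- libraries differed widely from each other, though both were above the Sin3B+/+ ones. The means were 26.5 ± 8.37 and 87.7 ± 28.7 (SD, n = 2 each). The log2 fold change was 1.69 ± 0.22 (limma adjusted p = 1.5e-13), higher than 97.9% of the table, and at 0.93 it was still called after centring (adjusted p = 0.023), when 7.01% of the table was called higher. It was not among the 8 peaks, since the table does not name Spib for it.

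Counting each peak for the gene with the nearest annotated start gave 6 genes of the list in place of 7. These were Il2rg, Spib, Syk and Tox, which the table also names, with Lck and Tcf7. Bach2, Gata3 and Ikzf2 dropped out, because another gene starts nearer to their peaks when the start of each gene as a whole is used. For Gata3 this rested on that choice. Its peak is 10404 bp from the start of the whole gene and 1622 bp from that of 4930412O13Rik. The closest transcript start is that of Gata3-201 (-1030 bp). The peak that the table names for Spib was lost as well, since Mybpc2 starts nearer to it (3312 bp), and Spib was counted through the peak named for Pold1 instead. Which genes of the list have a peak thus depended on the assignment for 5 of the 9 genes found by either way of counting. Gata3 was among these 5 only because starts of whole genes were used.

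Other lymphoid genes in the table showed the same direction. Of 30 further lymphoid genes, 11 had 15 peaks, all 15 higher in Sin3B-/- against 95.7% of the table, with a median log2 fold change of 0.73 (0.47 to 1.15), or -0.02 after centring. The 11 genes were 36.7% of that list, against 13.0% of the 54 genes and 15.8% of protein-coding genes. For the marker lists described next the share was 36.4% (HSC), 40.0% (erythroid and megakaryocyte) and 20.0% (myeloid). A high share was thus not particular to lymphoid genes, and these differences were not tested. Those 11 lymphoid genes included Notch1, the receptor that starts T-cell commitment, with levels of 185 and 155 in Sin3B+/+ and 258 and 307 in Sin3B-/-. Its log2 fold change was 0.73, or -0.02 after centring. Mef2c, a lymphoid priming factor, had 626 and 508 in Sin3B+/+ and 915 and 1091 in Sin3B-/- (0.82, or 0.07 after centring). The 3 peaks of Spi1, which encodes PU.1, had log2 fold changes of 0.87, 0.98 and 0.57, or 0.12, 0.23 and -0.18 after centring. The 2 of Zbtb7b, the factor of helper T-cell fate, had 1.15 and 0.66, or 0.40 and -0.10 after centring.

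Marker genes of HSCs and of other blood cells were higher in Sin3B-/- too. Peaks of HSC markers (4 of 11 genes, 5 peaks, of Slamf1, Procr, Fgd5 and Hoxb5) had a median log2 fold change of 0.81, or 0.06 after centring. The 11 genes included Flt3 (Flk2) and Cd48, whose products the sort selected against, and neither had a peak. Myeloid markers had 2 peaks (Cebpe and Csf1r; 2 of 10 genes) with a median of 0.70, or -0.05 after centring. Erythroid and megakaryocyte markers had 6 peaks (4 of 10 genes) with a median of 0.71, or -0.04 after centring. The Hbb-bt peak had the largest change among these marker lists, 1.52, and it was still called after centring (0.77, limma adjusted p = 0.0088). Every peak of these lists was higher in Sin3B-/-, as was 95.7% of the table. The part of cells other than LT-HSCs in the levels of the lymphoid peaks was not tested.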

How the data were processed

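ATAC-Seq was analysed in 2 Sin3B+/+ and 2 Sin3B-/- LT-HSC libraries, grouped by the genotype and replicate number in the sample labels. The authors checked reads with FastQC, trimmed them with Trimmomatic, aligned them with Bowtie2, took out duplicate reads with sambamba, called peaks with MACS2 and compared the genotypes with DiffBind and DESeq2, and they deposited peaks with an FDR under 0.05. The deposited values per library are a signal, the reads in each peak times a factor for the library, and how DiffBind set these factors is not given in the sources used here. They were whole multiples of a step in each library (0.228 and 0.343 in Sin3B+/+ replicates 1 and 2, 0.625 and 1 in Sin3B-/- replicates 1 and 2). A further 6 columns hold the authors' own levels, fold changes, p-values and FDR, and were not used.

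The submitters' processing notes name mm9, but the gene positions in the table are those of GRCm38 (5330 of 5332 identifiers found in GENCODE M21, 96.6% with the same start and end, and 8 of 8 for the lymphoid peaks), so GRCm38 was used. Log2(level + 1) was compared with limma 3.58.1 on all 5332 peaks with no covariate, two-sided, with Benjamini-Hochberg adjustment over the table. The pseudocount of 1 slightly understates changes of low peaks. The members, gene lists, motifs and tests were chosen with earlier results of these data known. Every member with a peak was named with its values in all libraries, and sequences were to be printed for the largest change in each lineage group outside exons. Alternatives were a replicate block, other pseudocounts, a level filter, centred libraries, leaving out each library and other assignments of peaks to genes. Replicate numbers do not pair the libraries, which came from different mice. The limma step was tested on simulated data in which a small part of the peaks changed, in both directions, with no shift between libraries. That test does not cover a selected table in which nearly all peaks change the same way. Limma ran in R 4.3.3, and other steps ran in Python 3.11.15 with pandas 2.3.3, numpy 2.4.6, matplotlib 3.10.9 and scipy 1.17.1.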

Additional observations from a re-analysis of the deposited data

How the results depend on the processing

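The call of all 8 lymphoid peaks as higher and 0 as lower was kept with pseudocounts of 0.5 and 5 and with a mean level of at least 50. With the replicate block 8 peaks were called higher, with a median log2 fold change of 0.89, and the block changed no call of a single peak, although the numbers pair no mice (correlation of same-numbered deviations -0.101), and the crossed pairing, added after the data were seen, also called 8. Centring each library on the median of these selected peaks called 0 higher and lowered the median from 0.89 to 0.14. It turned Gata3 (-0.10) and Syk upstream (-0.04) slightly negative. Leaving out 1 library moved the median between 0.62 (without Sin3B+/+ replicate 2) and 1.10 (without Sin3B+/+ replicate 1), and the number called was between 6 (without Sin3B-/- replicate 2) and 8, the lone library being assumed to vary like the other genotype. The table's own calls without Sin3B-/- replicate 2 were 3121 higher and 216 lower, and the cause was not tested. Of the 80 values of single peaks under other settings, 70 kept direction and call. A further 8 kept the direction and lost the call, and 2 changed sign slightly and lost the call too. Counting only peaks with a centre within 10000 bp of the gene start left 3 of 8. This count used starts of whole genes. It left out the Gata3 peak at 10404 bp, although that peak is at -1030 bp from the start of Gata3-201. The planned count tests were not run, because the deposited values are scaled and whole reads were not taken as recovered from their steps (the lowest value was 35, 15, 6 and 1 steps in the 4 libraries), so counting error at low peaks was not modelled.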
